A study of Mus musculus with 6 samples.

Results

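The receptor for the vasodilator peptide adrenomedullin and related peptide receptors were examined in endothelial cells, the cells that line blood vessels, sorted by flow cytometry from mouse lung. The group was chosen by name, with earlier results of these data known, and holds 7 genes of the 24520 in the deposited table. They are Calcrl, its accessory proteins Ramp1, Ramp2 and Ramp3, the ligand gene Adm, and the receptors Vipr1 and Ackr3. All 7 were found in the table, and 6 of them, without Vipr1, averaged 1 TPM or more and were tested. TPM is a unit of RNA abundance that is scaled by transcript length and by library. There were 3 libraries from wild-type mice aged 18 months, labelled Aged, and 3 from wild-type mice aged 8 months, labelled mAdu, and no treatment is named for either age. Each library began with 10 ng of total RNA and was sequenced as paired 100 bp reads. The sort markers were not stated in the sources used here. Whether each library represents its own mouse is not stated, so p-values measure only the spread among libraries, and that spread may be technical.

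Adrenomedullin relaxes vessels and tightens the endothelial barrier. Its receptor is a complex in which CALCRL, a receptor with 7 membrane-spanning segments, pairs with a receptor activity-modifying protein, a single-pass partner that carries it to the cell surface and sets its ligand preference. With RAMP2 or RAMP3 the complex binds adrenomedullin, and with RAMP1 it binds calcitonin gene-related peptide. The complex signals mainly through the stimulatory G protein and cAMP. VIPR1 is a receptor for vasoactive intestinal peptide that also raises cAMP. ACKR3 is an atypical receptor that takes up the chemokine CXCL12 and also adrenomedullin without classical G protein signalling.

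Across the 12748 tested genes, which are not independent replicates, Pearson correlations of log2(TPM + 1) were 0.974 to 0.982 for libraries of equal age and 0.966 to 0.977 for libraries of unequal age. All 7 endothelial markers were expressed, and their sum was 3698 to 4359 TPM at 18 months and 4625 to 4985 TPM at 8 months, without overlap. Of the 7, 6 were below 0 in log2 difference, where 66.2% of all tested genes were below 0. Cdh5, Kdr and Eng were lower without overlap, where 14.2% of all tested genes were. Among the 7 markers Pecam1, at 1286 to 1442 TPM over all libraries, was the one not below 0, with a log2 difference of 0.0032. Tek and Erg were also near 0, at -0.03 and -0.08. In Pecam1, Tek, Tie1 and Erg the groups overlapped. Below 0 were 4 of the 7 under median-of-ratios scaling, 5 after quantile normalization and 4 after the GC and length correction. Genes of other lung cells were also present, such as the surfactant gene Sftpc at 3945 to 6399 TPM at 18 months and 4880 to 11881 TPM at 8 months. The airway secretory gene Scgb1a1 had 5224 to 12297 TPM at 18 months and 5742 to 7384 TPM at 8 months. By mean TPM these genes ranked 8 and 5 in the whole table, above every endothelial marker and every member. The second 18-month library held the lowest value of 38.3% of all tested genes, against 6.99% to 16.2% in each of the other libraries.

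Calcrl was among the most abundant transcripts of these cells, and Ramp2 was the RAMP that accompanied it. The levels of the 7 genes ran from 3830.2 TPM down to 0.0324 TPM. By mean TPM over the 6 libraries Calcrl ranked 17 in the whole table, Ramp2 ranked 60, Ackr3 ranked 628, Ramp3 ranked 4469, Adm ranked 9793, Ramp1 ranked 11781 and Vipr1 ranked 16022. That order held in every library. Over all libraries the ranges of neighbours in it were apart, with the exception of Adm, at 1.89 to 5.51 TPM, and Ramp1, at 1.33 to 2.24 TPM.

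**Figure D1:**
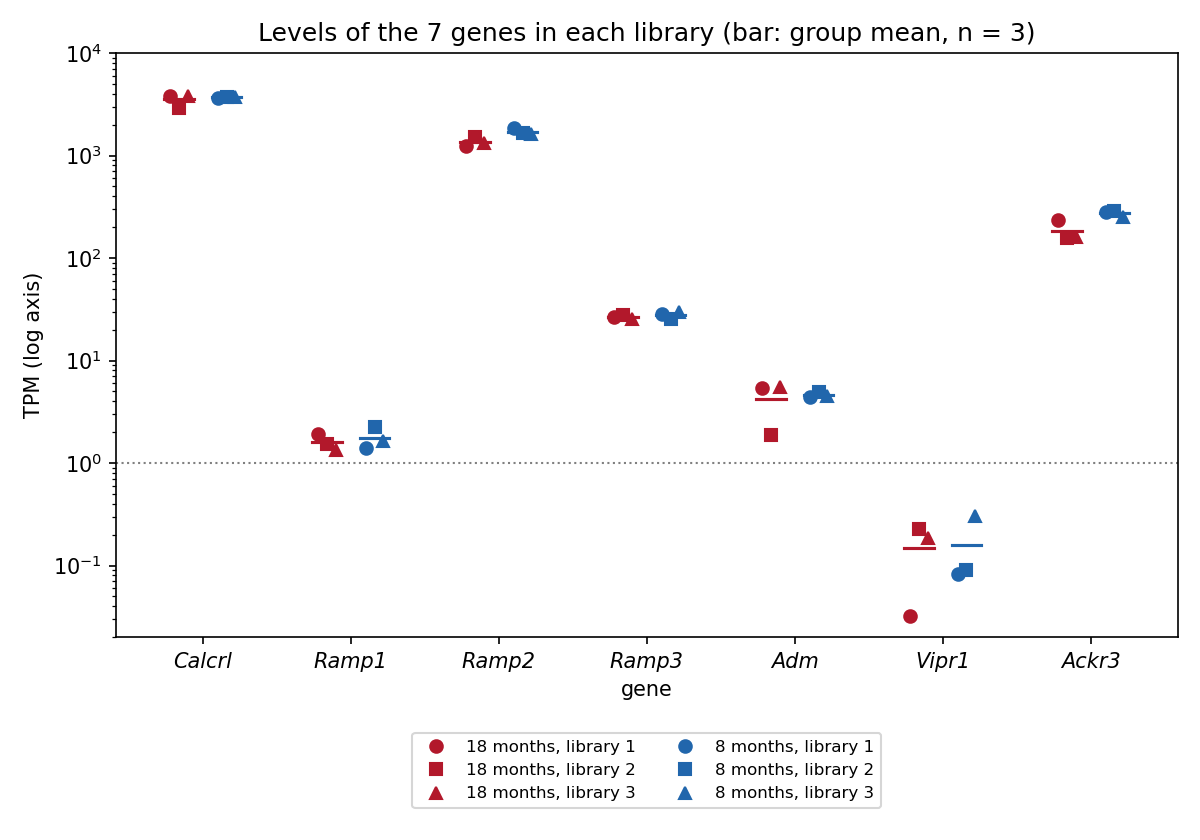
TPM of the 7 genes (log axis) in each of the 3 libraries at 18 months (red) and the 3 at 8 months (blue), with a bar at each group mean and a dotted line at 1 TPM. Calcrl and Ramp2 lie above 1000 TPM in all libraries, Vipr1 lies below 1 TPM in all, and the ages separate for Ramp2 and Ackr3.

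The start regions of Calcrl, the most abundant member, Ackr3, the member with the largest difference, and Adm, the ligand gene, are shown for comparison of the sequence from which these RNAs arise. The windows of 300 bases are from RefSeq on GRCm38.p6, each read 5′ to 3′ on the strand of its gene, chr2:84425217-84425516 on the minus strand for Calcrl, chr1:90203730-90204029 on the plus strand for Ackr3 and chr7:110627407-110627706 on the plus strand for Adm. Capitals mark matches, on either strand, to the TATA box word TATAAA, to either form of the hypoxia response element core, which is ACGTG or in its other form GCGTG, to the word AGGAAG, which holds the core bound by ETS factors, and to TGACG from the cAMP response element.
Calcrl: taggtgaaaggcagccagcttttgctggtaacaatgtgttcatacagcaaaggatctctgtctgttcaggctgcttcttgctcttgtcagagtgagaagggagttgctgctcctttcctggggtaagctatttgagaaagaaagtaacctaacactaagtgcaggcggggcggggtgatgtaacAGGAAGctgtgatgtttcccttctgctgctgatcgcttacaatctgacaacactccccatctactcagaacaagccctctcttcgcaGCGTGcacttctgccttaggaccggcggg
Ackr3: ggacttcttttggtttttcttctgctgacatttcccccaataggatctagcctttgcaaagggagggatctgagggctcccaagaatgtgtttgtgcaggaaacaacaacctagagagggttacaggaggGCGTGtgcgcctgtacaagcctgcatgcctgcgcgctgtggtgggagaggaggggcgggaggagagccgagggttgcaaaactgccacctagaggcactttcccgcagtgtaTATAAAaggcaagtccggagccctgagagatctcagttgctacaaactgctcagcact
Adm: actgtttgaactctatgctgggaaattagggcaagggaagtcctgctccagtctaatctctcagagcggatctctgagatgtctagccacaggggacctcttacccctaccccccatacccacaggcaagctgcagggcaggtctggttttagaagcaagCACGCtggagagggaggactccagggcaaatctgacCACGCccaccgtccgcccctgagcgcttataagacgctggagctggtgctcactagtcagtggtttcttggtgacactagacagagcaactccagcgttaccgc
Positions are counted from 1 at the 5′ end of a window. Distances in brackets are in bases from the annotated start site of the window, negative when upstream. Calcrl held AGGAAG at position 185 (-66) and GCGTG at position 272 (21). Ackr3 held GCGTG at position 131 (-120) and TATAAA at position 243 (-8). Adm held GCGTG on the opposite strand at positions 161 (-90) and 197 (-54). Among 32851 such windows in the mouse table, 32.4% held GCGTG, 35.4% held AGGAAG, 13.6% held TATAAA, 19.6% held ACGTG and 20.8% held TGACG. The word of the cAMP response element can share bases with the first form of the hypoxia core. These matches describe letters, and binding was not measured. Windows were matched for 6 of the 7 members, Ramp2 being the other one.

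For Calcrl, the receptor itself, no difference between the ages was detected. Its gene lies on chromosome 2 (84330626 to 84425411, minus strand, mm10). It had 3818, 2928 and 3830.2 TPM at 18 months, against 3676, 3719.9 and 3724 TPM at 8 months. The 8-month libraries lay within a narrow band, with a coefficient of variation of 0.722%, and the second 18-month library stood below all of them while the other two 18-month libraries stood above them. The coefficient of variation at 18 months was 14.7%. Calcrl averaged 3525 ± 518 TPM at 18 months and 3707 ± 26.8 TPM at 8 months (SD, n = 3 each). The difference in log2(TPM + 1), 18 minus 8 months, was -0.08 (95% interval -0.40 to 0.23, limma adjusted p = 0.848). The difference was 0.045 without the second 18-month library and 0.014 with median-of-ratios scaling. Relative to the 7 endothelial markers, Calcrl overlapped between the ages over 4, among them Pecam1. Over the other 3, namely Cdh5, Kdr and Eng, the ratio was higher at 18 months without overlap. Those 3 markers were themselves lower at 18 months without overlap (log2 differences -0.28, -0.54 and -0.79), and Calcrl itself was not higher. Calcrl over Cdh5 was 5.17, 4.48 and 4.71 at 18 months, against 4.20, 4.26 and 4.02 at 8 months, and over the sum of the 7 markers it was 0.928, 0.792 and 0.879 at 18 months, against 0.795, 0.746 and 0.781 at 8 months, with overlap.

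Ramp2, whose product carries CALCRL to the surface as the main adrenomedullin receptor, was lower in every 18-month library than in any 8-month library but did not pass the test. The gene lies on chromosome 11 (101246028 to 101259546, plus strand). Ramp2 had 1225, 1528 and 1319 TPM at 18 months, against 1843, 1648.5 and 1634 TPM at 8 months. The groups did not overlap, with the second 18-month library nearest to the 8-month values. In bulk RNA such as this, fewer cells of a type and less RNA per cell cannot be told apart. Ramp2 averaged 1358 ± 155 TPM at 18 months and 1708 ± 117 TPM at 8 months (SD, n = 3 each), a ratio of 0.795. Its log2 difference was -0.34 (95% interval -0.61 to -0.06, unadjusted p = 0.0228, limma adjusted p = 0.283). A correction for GC content and length brought it to -0.20. The unadjusted p was 0.0662, 0.0623 and 0.0749 without the first or the third 18-month library or the first 8-month library.

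The Ramp2 value is uncertain in one respect. Vps25, a gene of the endosomal sorting machinery, overlaps Ramp2 on the same strand, with 1103 of the 3301 annotated exon bases of Ramp2 shared. Of the 31-base sequences in Ramp2 transcripts, 31.7% also occurred in Vps25 transcripts. Vps25 lay at 171.4, 194.5 and 193.8 TPM at 18 months, against 184.8, 204.8 and 198.5 TPM at 8 months, well below Ramp2 in every library. With both genes summed the log2 difference was -0.31 (limma adjusted p = 0.313). Such sharing was 5.37% for Ramp3, with the pseudogene Gm11978, and under 1% for the other members.

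Ramp3, the other adrenomedullin partner, lay far below Ramp2. On chromosome 11 (6658521 to 6677475), it had 26.3, 28.0 and 25.2 TPM at 18 months, against 28.7, 25.5 and 29.4 TPM at 8 months. The groups overlapped, and the log2 difference was -0.07 (95% interval -0.32 to 0.18, limma adjusted p = 0.838). It turned to 0.025 under median-of-ratios scaling, to 0.025 after quantile normalization and to 0.073 once GC content and length were corrected for. Ramp1, the partner for calcitonin gene-related peptide, on chromosome 1 (91179822 to 91225196), had 1.93, 1.55 and 1.33 TPM at 18 months, against 1.40, 2.24 and 1.65 TPM at 8 months. Its groups also overlapped, and its log2 difference was -0.08 (95% interval -0.55 to 0.39, limma adjusted p = 0.91). The Ramp1 difference was 0.040 without the second 8-month library and 0.042 after the GC and length correction.

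Set against each other within a library, the RAMPs kept 1 dominant member at both ages. Ramp2 made up 97.8%, 98.1% and 98.0% of the summed TPM of the 3 RAMPs at 18 months and 98.4%, 98.4% and 98.1% at 8 months. The share of Ramp3 was 2.10%, 1.80% and 1.87% at 18 months, against 1.53%, 1.52% and 1.77% at 8 months, so the groups were apart by a narrow gap. The share of Ramp1 was 0.117% ± 0.0314 at 18 months and 0.102% ± 0.0295 at 8 months (SD, n = 3 each). Ramp2 over Calcrl was 0.321, 0.522 and 0.344 at 18 months, against 0.501, 0.443 and 0.439 at 8 months. The first and the third 18-month libraries were the lowest of all in this ratio and the second was the highest, so the groups overlapped. The ratio averaged 0.396 ± 0.110 at 18 months and 0.461 ± 0.0349 at 8 months, and the difference of -0.065 became -0.13 without the second 18-month library, -0.028 without the first and -0.040 without the third. These ratios are descriptions and were not tested.

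**Figure D2:**
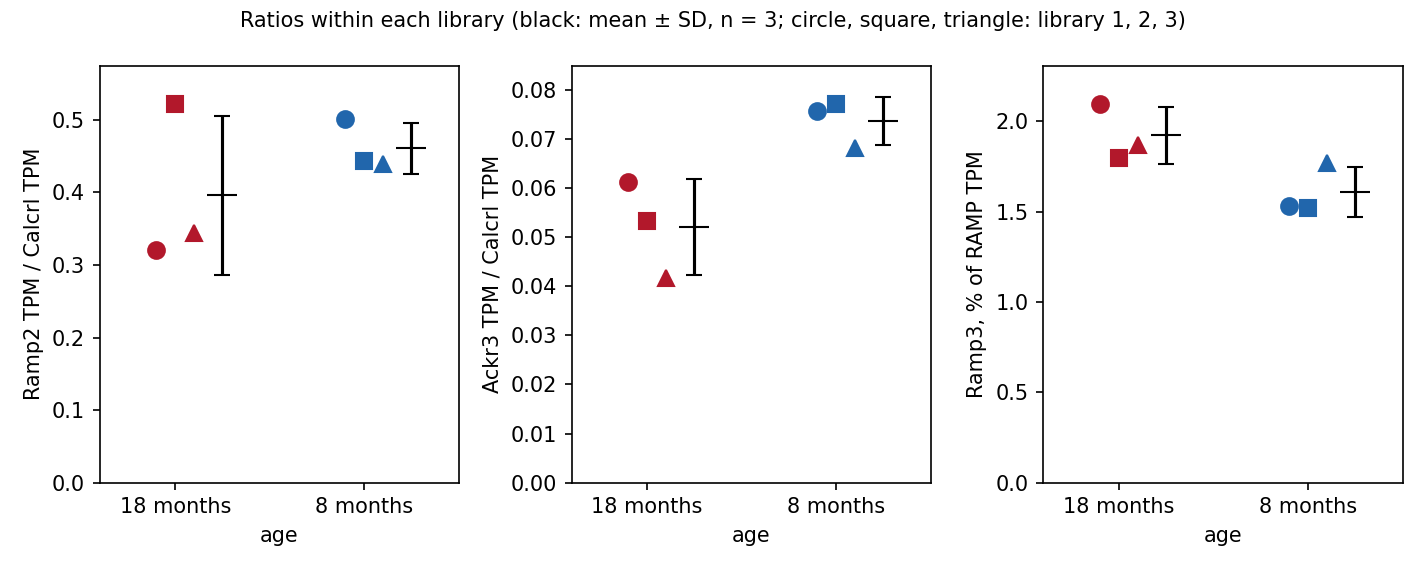
Ratios of TPM within each library at 18 months (red, left) and 8 months (blue, right), namely Ramp2 over Calcrl, Ackr3 over Calcrl and the percent of summed RAMP TPM held by Ramp3, with mean and SD in black (n = 3). The ages overlap for Ramp2 over Calcrl, where the second 18-month library is highest at 0.522, and are apart for Ackr3 over Calcrl.

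Adm, which encodes the precursor of adrenomedullin, was expressed at a low level. The gene lies on chromosome 7 (110627661 to 110629820, plus strand). It had 5.37, 1.89 and 5.51 TPM at 18 months, against 4.41, 4.87 and 4.55 TPM at 8 months. The groups overlapped, with the second 18-month library lowest of all and the other two 18-month libraries highest, the same placing as for Calcrl. The log2 difference was -0.19 (95% interval -0.91 to 0.54, limma adjusted p = 0.851), and it was 0.20 without the second 18-month library and 0.058 with library weights. Adm TPM amounted to 0.141%, 0.0645% and 0.144% of Calcrl TPM at 18 months and 0.1198%, 0.131% and 0.122% at 8 months.

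Other ligands of this receptor family were scarce. Calca, which encodes calcitonin and calcitonin gene-related peptide, lay at 0.599, 0.695 and 0.351 TPM at 18 months, against 0.007, 0.230 and 2.64 TPM at 8 months. Adm2, Calcb and the calcitonin receptor gene Calcr lay below 0.3 TPM in every library, and Iapp was listed at 0 in all. The list of calcitonin family peptides, receptors and processing genes had 3 tested genes of 8, of which 0 were called. Pam, the enzyme that amidates adrenomedullin, averaged 57.9 ± 8.82 TPM at 18 months and 65.8 ± 6.94 TPM at 8 months, Crcp, a CALCRL-associated protein, averaged 71.1 ± 2.75 TPM at 18 months and 69.4 ± 6.63 TPM at 8 months, and Mme, a peptidase that degrades vasoactive peptides, averaged 1.92 ± 1.13 TPM at 18 months and 1.80 ± 0.514 TPM at 8 months (SD, n = 3 each).

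Ackr3, the scavenging receptor for CXCL12 and adrenomedullin, had the largest log2 difference and the smallest p of the 6 tested genes, and it did not pass over all genes tested. It lies on chromosome 1 (90203980 to 90216751, plus strand), 963.1 kb from Ramp1. It had 233.9, 156.0 and 159.9 TPM at 18 months, against 278.5, 287.1 and 253.7 TPM at 8 months. All 18-month libraries lay below all 8-month libraries, with the first 18-month library closest to them. Ackr3 averaged 183.2 ± 43.9 TPM at 18 months and 273.1 ± 17.3 TPM at 8 months (SD, n = 3 each), a ratio of 0.671. Its log2 difference was -0.60 (95% interval -0.97 to -0.23, unadjusted p = 0.00617, limma adjusted p = 0.195). Ackr3 over Calcrl was 0.0612, 0.0533 and 0.0417 at 18 months and 0.0758, 0.0772 and 0.0681 at 8 months, without overlap.

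The partners of ACKR3 were measured in the same libraries. Cxcl12, its chemokine ligand, had 192.8, 180.1 and 269.0 TPM at 18 months, against 137.1, 206.4 and 146.4 TPM at 8 months, which overlapped (log2 difference 0.39, limma adjusted p = 0.456). That difference was 0.21 without the third 18-month library and 0.60 with library weights. Cxcl12 TPM over Ackr3 TPM was 0.824, 1.16 and 1.68 at 18 months and 0.492, 0.719 and 0.577 at 8 months, a description in which the groups did not overlap. Cxcr4, the signalling receptor for the same chemokine, had 6.81, 4.12 and 4.04 TPM at 18 months, against 3.25, 10.1 and 5.61 TPM at 8 months (limma adjusted p = 0.851), far below Ackr3 in every library. Its log2 difference of -0.21 was 0.15 without the second 8-month library. Cxcl11, the gene named for the other chemokine of ACKR3, averaged 1.86 ± 0.186 TPM at 18 months and 1.43 ± 0.0723 TPM at 8 months (limma adjusted p = 0.612), without overlap. It is annotated as a polymorphic pseudogene, and whether it yields a chemokine in these mice is not known from RNA levels. Of these 3 genes, 0 were called.

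Vipr1 and the rest of its peptide family lay at low levels. Vipr1 (chromosome 9, 121642716 to 121672954) had 0.0324, 0.226 and 0.185 TPM at 18 months, against 0.0820, 0.0899 and 0.306 TPM at 8 months. The groups overlapped, and the gene was too low to be tested at a mean of 1 TPM. Of the 7 genes in the list of vasoactive intestinal peptide, pituitary adenylate cyclase-activating peptide and their receptors, 0 reached that mean. The ligand gene Vip was the most abundant of them, at 0.785, 1.30 and 1.35 TPM at 18 months, against 0.678, 0.629 and 0.945 TPM at 8 months, and these groups overlapped. Depth is unknown, so no detection limit can be given for these genes.

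Past an unadjusted p of 0.05 were 2 of the 6 tested members, Ackr3 and Ramp2, both lower, and in the same 2 genes the groups did not overlap. Ackr3 alone was past it in 7 of the 17 alternatives, the unadjusted p of Ramp2 being 0.198 with median-of-ratios scaling, 0.22 with the GC and length correction, 0.343 with that correction and the replicate block, and 0.0585 with the block alone, besides the 3 fits with a library left out given above. Over all tested genes 13.4% were past that p, 3.45% higher and 9.99% lower, and 18.7% had groups that did not overlap, 4.48% higher and 14.2% lower. The adjusted threshold of 0.05 was passed by 0 members and by 0.0235% of all tested genes, 0.00784% higher and 0.0157% lower. The log2 differences of all 6 tested members were below 0, their median was -0.13 and that of all tested genes was -0.08, with 66.2% of all tested genes below 0. The number of members above 0 was 2 under median-of-ratios scaling, 1 after quantile normalization and 2 after the GC and length correction. Genes past the unadjusted p leaned the same way, 440 higher and 1274 lower at 18 months. That split was 756 higher and 881 lower under median-of-ratios scaling, 751 and 979 after quantile normalization, and 760 and 746 once GC content and length were corrected for.

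**Figure D3:**
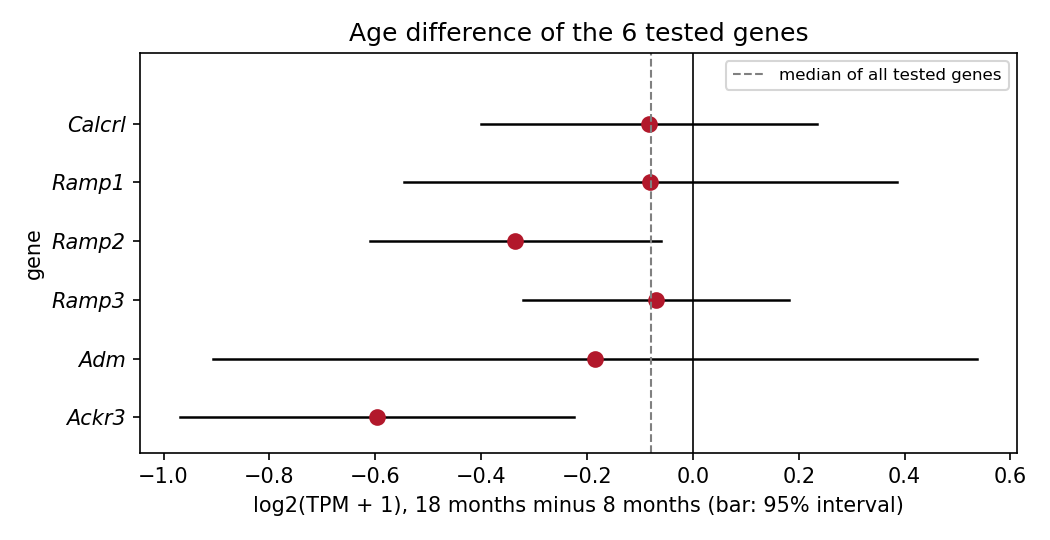
Difference in log2(TPM + 1), 18 months minus 8 months, of the 6 tested genes (points) with 95% intervals (bars), with a dashed line at the median of all tested genes, -0.08. The intervals of Ramp2 and Ackr3 lie below 0, and those of Calcrl, Ramp1, Ramp3 and Adm include 0.

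Downstream of these receptors, the cAMP pathway was well represented and 0 of its 24 tested genes, of 30 listed, were called. Their median log2 difference was -0.09, against -0.08 for all tested genes, with 4 genes above 0 and 20 below, where 66.2% of all tested genes were below. The median was 0.0049 under median-of-ratios scaling, 0.0075 after quantile normalization and 0.021 after the GC and length correction, and -0.17 and -0.04 without the first and the second 18-month library. Past the unadjusted threshold were 3 genes, 12.5%, all lower, which is near the 13.4% of all tested genes. Pde4d, a phosphodiesterase that breaks down cAMP, had 9.34, 7.69 and 8.86 TPM at 18 months, against 11.3, 11.5 and 11.7 TPM at 8 months, without overlap (limma adjusted p = 0.265). Gnai3, an inhibitory G protein subunit, averaged 61.5 ± 11.4 TPM at 18 months and 78.6 ± 0.853 TPM at 8 months (limma adjusted p = 0.303). Rapgef3, a cAMP-activated exchange factor that strengthens endothelial junctions, averaged 90.7 ± 16.5 TPM at 18 months and 114.5 ± 11.1 TPM at 8 months, and Prkar1a, a regulatory subunit of protein kinase A, averaged 314.3 ± 38.7 TPM at 18 months and 363.7 ± 19.5 TPM at 8 months (SD, n = 3 each). The stimulatory G protein gene Gnas had 258.4, 307.3 and 289.9 TPM at 18 months, against 274.8, 248.9 and 272.5 TPM at 8 months, and Adcy4, the most abundant adenylate cyclase gene of the list, had 306.5, 289.2 and 297.4 TPM at 18 months, against 308.4, 299.3 and 287.1 TPM at 8 months, both with overlap.

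Genes of receptor desensitization and trafficking numbered 13, all tested, and 0 were called. Their log2 differences were below 0 in all 13, as in 66.2% of all tested genes, and the median was -0.16. Above 0 were 4 genes under median-of-ratios scaling, 3 after quantile normalization and 4 after the GC and length correction, with medians of -0.08, -0.09 and -0.06. Rab11a, the GTPase of recycling endosomes, had 264.3, 199.3 and 219.3 TPM at 18 months, against 341.5, 303.8 and 305.2 TPM at 8 months, without overlap (log2 difference -0.48, limma adjusted p = 0.19). Arrb1, which encodes a β-arrestin that ends receptor signalling, had 91.8, 70.4 and 93.8 TPM at 18 months, against 98.4, 113.2 and 104.0 TPM at 8 months (limma adjusted p = 0.359). Rab7, a GTPase of late endosomes, averaged 321.8 ± 22.4 TPM at 18 months and 362.9 ± 7.37 TPM at 8 months, and Rab4a, a GTPase of early recycling, averaged 29.5 ± 4.10 TPM at 18 months and 35.0 ± 2.21 TPM at 8 months (SD, n = 3 each). The groups did not overlap in 4 of the 13 genes, all lower, where 14.2% of all tested genes were lower without overlap.

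Among 31 other vascular peptide receptors 12 were tested and 0 were called, with a median log2 difference of -0.07. With single libraries left out it was -0.22 (the second of 8 months), -0.21 (the third of 8 months), -0.16 (the first of 18 months) and -0.01 (the first of 8 months). It was 0.0082 under median-of-ratios scaling and 0.017 after the GC and length correction. Ednrb, the endothelin receptor typical of aerocytes (flat alveolar capillary cells with a role in gas exchange), had 495.6, 419.9 and 572.4 TPM at 18 months, against 821.3, 687.2 and 1022 TPM at 8 months (limma adjusted p = 0.155), without overlap. F2r, the thrombin receptor PAR1, lay higher at 18 months, with 55.0, 49.0 and 62.9 TPM at 18 months against 37.7, 41.1 and 40.2 TPM at 8 months, also without overlap (log2 difference 0.47, limma adjusted p = 0.181). Npr2, the receptor for C-type natriuretic peptide, averaged 2.02 ± 0.264 TPM at 18 months and 3.56 ± 0.571 TPM at 8 months, and Mas1, the receptor for angiotensin-(1-7), 0.730 ± 0.818 TPM at 18 months and 2.004 ± 0.256 TPM at 8 months (SD, n = 3 each). Their limma adjusted p were 0.216 and 0.303, and both lay lower at 18 months without overlap. These 4 receptors, 33.3% of the 12 tested, were past a limma unadjusted p of 0.05, and the same 4 had groups that did not overlap. Over all tested genes 13.4% were past that p and 18.7% did not overlap.

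Of 12 vascular peptide ligand genes 4 were tested and 0 were called. Apln, the ligand of the apelin receptor and likewise typical of aerocytes, had 53.6, 42.0 and 42.1 TPM at 18 months, against 67.9, 66.9 and 75.1 TPM at 8 months, without overlap (log2 difference -0.60, limma adjusted p = 0.14). Edn1, the precursor of endothelin-1, had 326.6, 220.9 and 413.2 TPM at 18 months, against 237.6, 172.0 and 270.9 TPM at 8 months, which overlapped (limma adjusted p = 0.464). The natriuretic peptide genes were low, where Nppc averaged 0.558 ± 0.379 TPM at 18 months and 1.97 ± 1.69 TPM at 8 months, and Nppa averaged 1.12 ± 0.150 TPM at 18 months and 1.60 ± 0.408 TPM at 8 months (SD, n = 3 each). Apln and Nppa, 2 of the 4 tested, were lower without overlap, where 14.2% of all tested genes were.

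**Figure D4:**
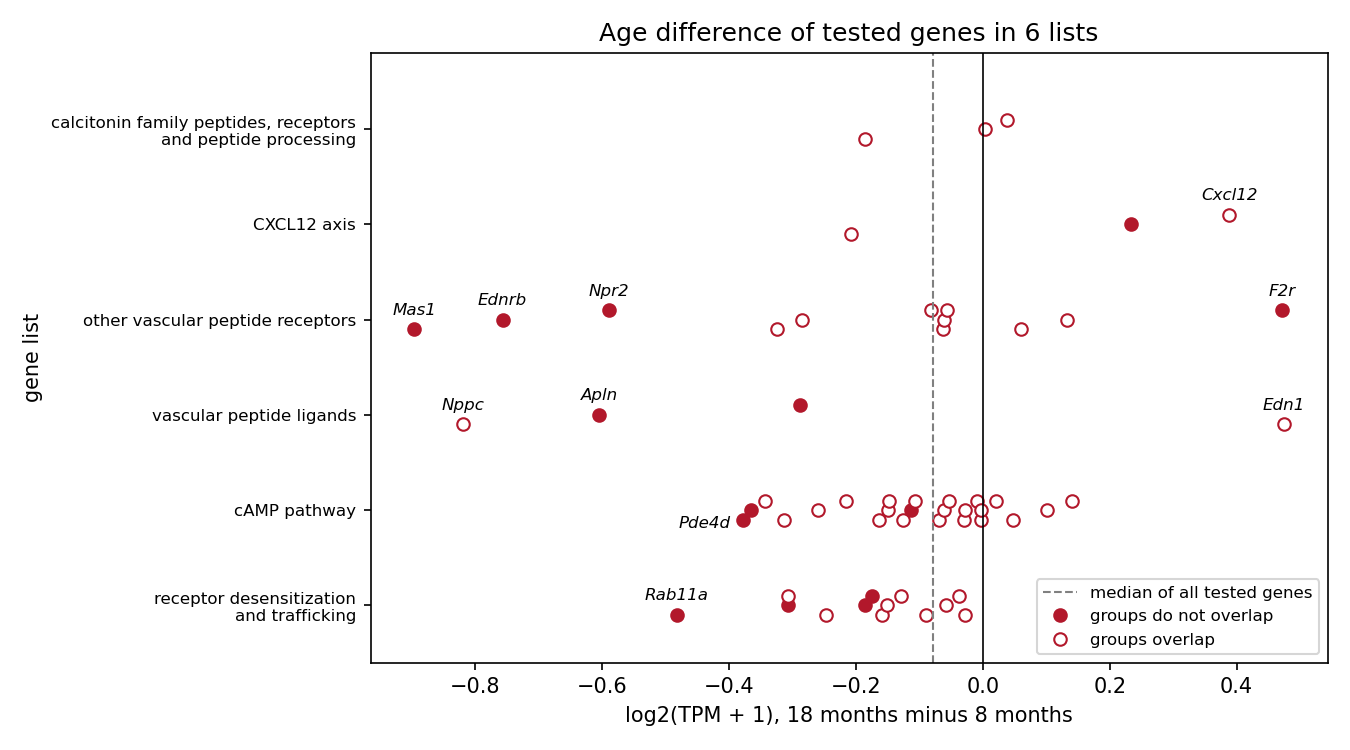
Difference in log2(TPM + 1), 18 months minus 8 months, of the tested genes in 6 lists, filled where the ages did not overlap and open where they did, with a dashed line at the median of all tested genes. Ednrb, Apln and Rab11a lie on the lower side with filled points and F2r on the higher side, and no gene shown was called.

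The genes nearest to each member in pattern were sought among 9117 genes (9118 for Ramp1 and Adm) averaging 5 TPM or more, by the root mean square distance over the 6 libraries in log2(TPM + 1) centred on each gene's own mean. Calcrl was nearest to Man1a2, Ggcx and Lpp, at 0.0274, 0.0286 and 0.0300. All 3 had their lowest value in the second 18-month library, as Calcrl did, a likeness that follows from the choice by distance. Ramp2 was nearest to Gmfg at 0.0364, Rps28 at 0.0439 and Cdk16 at 0.0498. Ackr3 was nearest to Rusc2 at 0.0599, Cda at 0.0607 and Txndc15 at 0.0618. Ramp3 was nearest to Sertad3 at 0.0269, March8 at 0.0311 and Slc35f6 at 0.0351, and Ramp1 to Zkscan6 at 0.0284, Arl6ip4 at 0.0420 and Slc12a7 at 0.0427. Adm had no gene as close, the nearest being Ctnnd1 at 0.121, Bag6 at 0.125 and Zfp518a at 0.130, against its own root mean square deviation of 0.399. In Ctnnd1 the second 18-month library stood at 42.4 TPM, below 79.0 to 89.4 TPM in the other libraries, which also follows from that choice.

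Marker genes of vessel and other cell types lay apart between the ages in several lists, as did Ackr3 and Ramp2. The 10 aerocyte markers were all lower in log2 difference, 9 of them without overlap, where 66.2% of all tested genes were below 0 and 14.2% were lower without overlap. Their summed level was 4127 to 4673 TPM at 18 months and 5118 to 6737 TPM at 8 months. Its largest part was Car4, the marker with overlap, at means of 2314 TPM at 18 months and 2822 TPM at 8 months. General capillary markers summed to 5571 to 6096 TPM at 18 months and 4748 to 5353 TPM at 8 months. Of these 9 markers 7 were above 0 in log2 difference, where 33.8% of all tested genes were. Higher without overlap were 2 of them, Cd93 and Sema3c, where 4.48% of all tested genes were. Plvap and Aplnr lay below 0, at -0.79 and -0.06, with overlap. The largest part of the sum was Gpihbp1, at means of 2209 TPM at 18 months and 1938 TPM at 8 months, with overlap. The aerocyte and capillary directions held under each scaling. Venous markers summed to 454.8 to 575.5 TPM at 18 months and 587.2 to 1181 TPM at 8 months. Below 0 were 8 of 8, or 7 of 8 under median-of-ratios scaling, quantile normalization and the GC and length correction. Lower without overlap were 3 of the 8, Nr2f2, Slc6a2 and Cpe. In Vwf, Bst1, Selp and Vcam1 the first 8-month library lay within the 18-month range, and the other 8-month libraries lay above it. For Vwf the values were 283.0, 609.8 and 481.4 TPM at 8 months, against 291.8, 253.8 and 336.5 TPM at 18 months. In Ephb4 the first 8-month library was the highest of all. Arterial markers summed to 1066 to 1160.5 TPM at 18 months and 745.3 to 1017 TPM at 8 months, with 6 of 8 above 0. Most of that gap lay in Gja4, a gap junction gene, at 495.6, 658.1 and 521.6 TPM at 18 months, against 418.6, 403.4 and 277.5 TPM at 8 months, while Fbln5 lay lower without overlap. The lymphatic list summed to 602.3 to 759.4 TPM at 18 months and 917.2 to 1153 TPM at 8 months, nearly all of it Lyve1, while the lymphatic regulator Prox1 lay below 0.2 TPM in every library.

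Markers of smooth muscle and pericytes summed to 33.9 to 38.7 TPM at 18 months and 54.2 to 75.5 TPM at 8 months, and fibroblast markers to 9.26 to 12.9 TPM at 18 months and 18.9 to 34.8 TPM at 8 months. All 10 tested myeloid markers were above 0 in log2 difference, with a median of 0.67, and remained so under each scaling. In 2 of them, Chil3 and Cd14, the groups did not overlap. Over all tested genes 33.8% were above 0 and 4.48% were higher without overlap. Chil3 had 140.5, 390.6 and 248.7 TPM at 18 months, against 26.7, 31.4 and 140.1 TPM at 8 months, and Cd14 had 38.1, 32.4 and 28.8 TPM at 18 months, against 18.5, 17.6 and 24.9 TPM at 8 months. The myeloid sum, most of it Lyz2, was 929.0 to 1720 TPM at 18 months and 633.3 to 1764.5 TPM at 8 months. Lymphocyte markers summed to 15.9 to 22.1 TPM at 18 months and 17.7 to 45.6 TPM at 8 months, and epithelial markers to 9606 to 19477 TPM at 18 months and 11153 to 20406 TPM at 8 months. The sum of the 7 endothelial markers was lower as well. The part of these cell types in the lower Ackr3 and Ramp2 levels was not tested. Set against each of the 7 endothelial markers within a library, Ackr3 was lower at 18 months without overlap over 2 of them, Pecam1 and Erg, and overlapped over the other 5. Ramp2 was lower without overlap over Pecam1 and overlapped over the other 6. Over Cdh5, Ackr3 was 0.317, 0.239 and 0.197 at 18 months, against 0.318, 0.328 and 0.274 at 8 months, and Ramp2 was 1.66, 2.34 and 1.62 at 18 months, against 2.11, 1.89 and 1.76 at 8 months. Over the sum of the 7 markers, Ackr3 was 0.0569, 0.0422 and 0.0367 at 18 months, against 0.0602, 0.0576 and 0.0532 at 8 months, and Ramp2 was 0.298, 0.413 and 0.303 at 18 months, against 0.398, 0.331 and 0.343 at 8 months. On that scale both genes overlapped between the ages, Ackr3 through the first 18-month library alone and Ramp2 through the second alone. Cdh5, Kdr and Eng, which are part of that sum, were themselves lower at 18 months without overlap.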

How the data were processed

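The authors deposited TPM for 24520 Ensembl genes, with each library in its own column. kallisto and mm10 are named, per the submitters' processing notes. The sources used here give no version, transcript set, gene summing or strand setting. Because TPM do not retain read numbers, depth is unknown and counting error cannot be computed.

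Symbols and positions came from GENCODE M21 (GRCm38, the assembly called mm10), which held 24299 of the identifiers. The members and gene lists were chosen with earlier results of these data known. The 12748 genes averaging 1 TPM or more were tested as log2(TPM + 1) with R 4.3.3 and limma 3.58.1 (intensity trend, age as the sole term, 2-sided, Benjamini-Hochberg over all tested genes, threshold 0.05). Log2 differences are 18 minus 8 months on this scale, and changes of low genes are understated. Intervals are at the 95% level. The fit was tested on simulated data. The 7 genes are named whatever their result, with up to 4 genes of each list by smallest unadjusted p and, for each tested member, the 3 genes nearest in pattern. Marker genes, Vps25, Gnas, Adcy4, Vip and low calcitonin family genes are named beside the results they touch and were chosen after their values were seen. Alternatives were pseudocounts of 0.1 and 0.5, no filter, a filter at 5 TPM, scaling by median of ratios, quantile normalization, no trend, library weights, a block for replicate number, a loess correction (span 0.75) for GC content and transcript length, and each library left out. Summing Ramp2 with Vps25, counting list directions under each scaling, and dividing members by each endothelial marker were chosen after seeing the data. For 1 gene of the calcitonin family list the result is not reported here, and the list is counted without it.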

Additional observations from a re-analysis of the deposited data

How the results depend on the processing

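None of the tested members passed under any alternative run. Ramp1 and Adm were not tested at a mean of at least 5 TPM, and Vipr1 was tested with no filter alone. Leaving out 1 library at a time gave 0 to 2 called genes overall. There were 0 with no filter (2203 at an unadjusted p under 0.05), 16 under median-of-ratios scaling, 16 after quantile normalization, 94 with library weights, 6 with the GC and length correction, and 0 with that correction and the replicate block. Ackr3 stayed between -0.78 and -0.49 and Ramp2 between -0.42 and -0.20 on the log2 scale, with adjusted p of 0.0543 to 0.463 and 0.112 to 0.755. Apln passed with library weights (limma adjusted p = 0.042, 0.042 to 0.349 over its alternatives).

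Some small differences changed sign, the largest in the main fit being -0.19 for Adm and -0.21 for Cxcr4. The cause was not tested. Calcrl lay at 0.014 with median-of-ratios scaling. Ramp1 lay at 0.042 with the GC and length correction, without and with the replicate block. Ramp3 lay at 0.025 under median-of-ratios scaling, 0.025 after quantile normalization and 0.073 with the GC and length correction, without and with the block. Adm lay at 0.058 with library weights. Mme lay at -0.037 and -0.011 with pseudocounts of 0.1 and 0.5, and at -0.38 with library weights. With 1 library left out, the values ran from -0.15 to 0.045 for Calcrl, -0.18 to 0.040 for Ramp1, -0.39 to 0.20 for Adm, -0.039 to 0.094 for Crcp, -0.28 to 0.29 for Mme and -0.55 to 0.15 for Cxcr4. Over the same fits the difference in Ramp2 over Calcrl ran from -0.13 to -0.028.

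Whether the replicate numbers pair libraries is not stated in the labels, and correlations with 3 libraries per age cannot exclude it. Deviations of same-numbered libraries from their group means correlated across genes at -0.012, -0.090 and 0.057. For pairs with different numbers the range was -0.069 to 0.083. With the replicate block 0 genes were called (1445 at an unadjusted p under 0.05), with limma adjusted p of 0.241 for Ackr3 and 0.465 for Ramp2. TPM hide the depth, which limits what can be said of Vipr1, Ramp1 and Adm.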
